A study of Rattus norvegicus with 4 samples.

Results

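Chemokines are small secreted proteins that direct the migration of leukocytes, and they act through G protein-coupled receptors named after the ligand class (CC, CXC, CX3C or XC). In the brain they are made by microglia, astrocytes, endothelium and some neurons; Cx3cl1 on neurons and Cx3cr1 on microglia form a constitutive pair, while Ccl2, Cxcl1, Cxcl9 and Cxcl10 are known as inducible ligands. The genes examined here were all rat genes whose array accession carried a chemokine, chemokine receptor or atypical chemokine receptor symbol. This rule gave 44 genes on 50 probes among 8899 named genes on 10768 named probes: 15 CC ligands, 13 ligands of the CXC, CX3C and XC classes, 14 receptors and 2 atypical receptors, which bind chemokines without G protein signaling. A further 15 symbols that fit the rule had no named probe and were not analysed here.

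The hippocampi came from male Wistar rats, 10 weeks old at the start. Sedentary rats (10 animals) lived in standard cages, WR rats (8 animals) ran voluntarily on a wheel without resistance, and RWR rats (8 animals) ran on a wheel whose resistance was raised over 4 weeks to 30% of body weight. RNA was pooled within each group and hybridized in 2 colors, WR against sedentary on chips 1 and 2 and RWR against sedentary on chips 3 and 4, with the running pool in Cy5 on chips 1 and 3 and in Cy3 on chips 2 and 4. The RNA amounts in the methods correspond to 3 replicates in each pool, and how many rats a replicate held is not given in the sources used here. Both chips of a pair measured the same pools, so there was 1 biological replicate for each condition, no test between conditions was made, and every SD below, except those over the spots of Ccl2, is over the 2 chips of a pair and holds the dye difference as well as the noise of the measurement.

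A probe was called when both chips of a pair gave a running over sedentary ratio past a cutoff, 1.5-fold up or 0.75-fold down, each with a deposited single-chip p-value under 0.01. A signal is termed detected below where the scanner software flagged it as well above its background, and a gene is termed fully detected where this held for both dyes of all 4 chips. The markers of the labeled tissue were present: 7 of 7 neuronal, 7 of 7 astrocyte, 6 of 6 oligodendrocyte and 10 of 10 microglial marker genes on the array were fully detected. Of 10 T and NK cell markers 5 were detected in no measurement and 1 was fully detected, and the 1 B cell marker on the array was detected in none. Markers of other cells were present too. Fully detected were 4 of 6 neutrophil and monocyte markers and 3 of 5 red cell and platelet markers. So were 4 of 7 pituitary and 2 of 7 choroid plexus markers. The turned ratios of the chips of a pair correlated at r = -0.76 over all probes in the WR pair and at r = -0.69 in the RWR pair, a description across probes that are not independent. A difference between the dyes that is common to both chips of a pair, termed the dye offset, enters the turned ratios with opposite signs and cancels in their mean.

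4 chemokine ligands were called, all lower in running rats. Cxcl10 fell in both WR and RWR, Ccl2 fell in WR, and Cxcl1 and Cxcl9 fell in RWR. No chemokine, receptor or atypical receptor was called higher in either mode. In WR 2 of 50 probes (4%) were called lower, against 0.0293% of all probes, and 0 were called higher, against 0.00244%. In RWR 3 of 50 probes (6%) were called lower, against 0.0488% of all probes, and 0 were called higher, against 0.00975%. Without the p-value requirement 3 probes were lower in WR, with Cxcl1 added (0.337% of all probes), and 5 in RWR, with Ccl2 and Ccr4 added (1.39% of all probes), and still 0 were higher in WR (0.212%) or RWR (0.0878%). In bulk tissue, fewer cells of a type and less RNA per cell cannot be told apart.

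**Figure D1:**
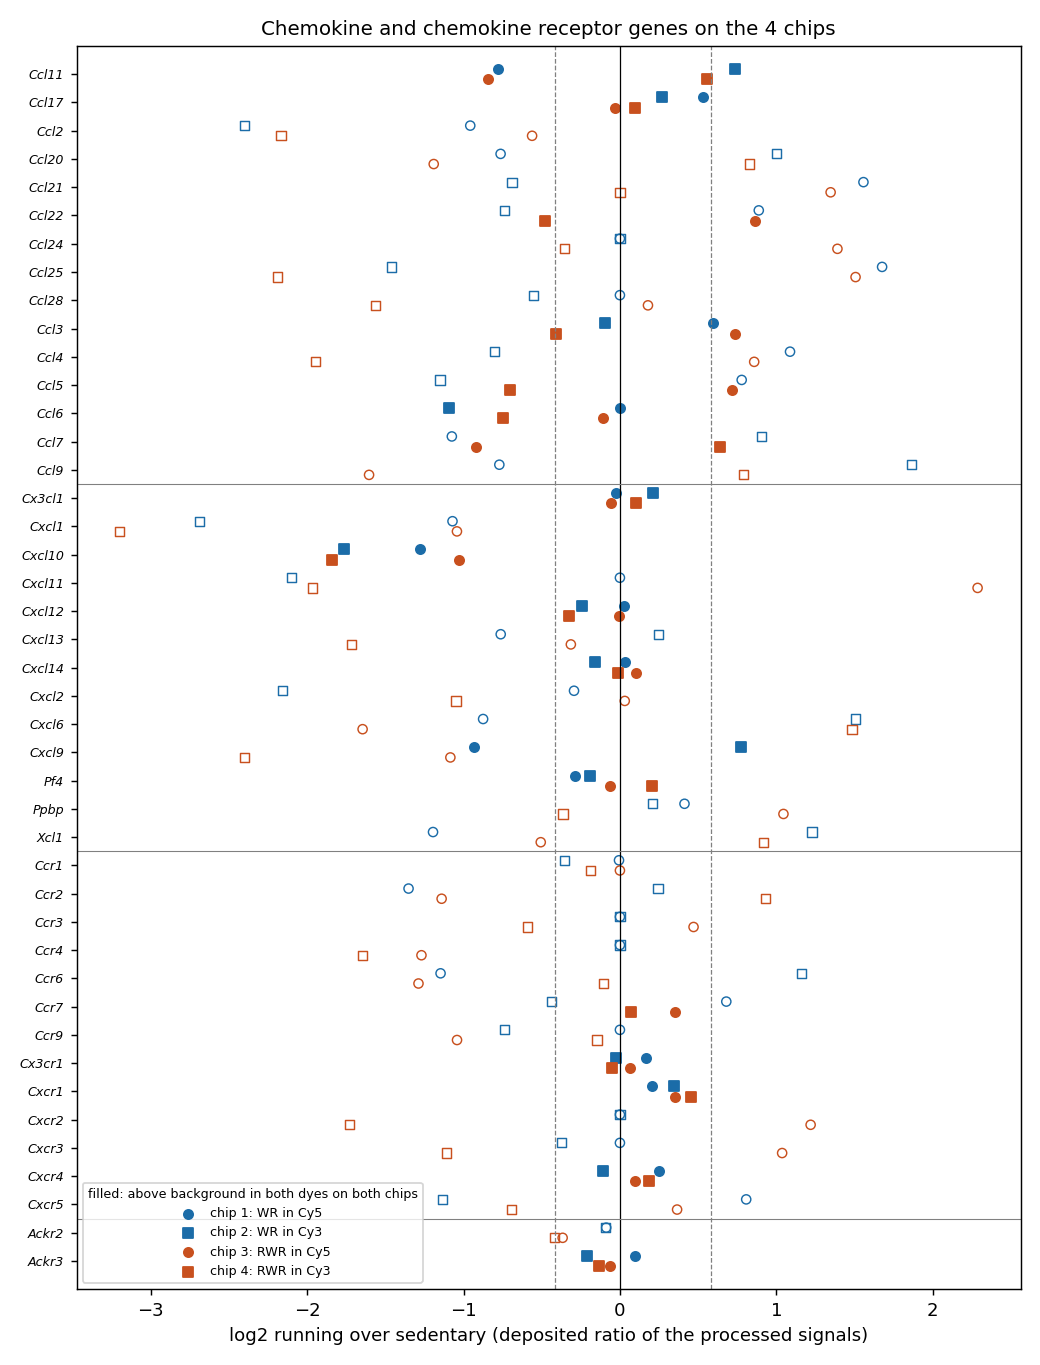
Log2 ratio of running over sedentary on each of the 4 chips (x axis) for 43 of the 44 genes (y axis, by role: CC ligands, other ligands, receptors, atypical receptors). Blue marks WR and orange RWR, circles mark the running pool in Cy5 and squares in Cy3; filled symbols are genes detected in both dyes of both chips of the pair, and dashed lines are the 1.5-fold and 0.75-fold cutoffs. Cxcl10 is the only gene with 4 filled symbols left of the lower cutoff.

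The regions before the start of 3 of the called genes are shown because these genes moved in the same direction and because Cxcl9 and Cxcl10 are neighbors. All 3 lie on chromosome 14, with the starts of Cxcl9 and Cxcl10 18.1 kb apart and that of Cxcl1 1490 kb from that of Cxcl10. Each sequence holds the 250 bases before the RefSeq start on GRCr8, written 5′ to 3′ on the strand of the gene. Capitals mark matches on either strand to GAAANNGAA, a core of the interferon-stimulated response element, or to GGANNTTCC, a core of the NF-kB site; TTCNNNGAA, a core of the interferon-gamma activated site, was searched as well, also on either strand. The positions are chr14:15988816-15989065 on the plus strand for Cxcl10, chr14:16006916-16007165 on the plus strand for Cxcl9 and chr14:17479322-17479571 on the minus strand for Cxcl1.
Cxcl10: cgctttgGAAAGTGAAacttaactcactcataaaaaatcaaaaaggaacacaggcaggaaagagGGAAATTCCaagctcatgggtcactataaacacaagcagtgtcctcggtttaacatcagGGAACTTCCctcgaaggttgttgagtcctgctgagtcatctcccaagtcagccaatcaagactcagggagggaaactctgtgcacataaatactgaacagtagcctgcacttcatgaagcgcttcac
Cxcl9: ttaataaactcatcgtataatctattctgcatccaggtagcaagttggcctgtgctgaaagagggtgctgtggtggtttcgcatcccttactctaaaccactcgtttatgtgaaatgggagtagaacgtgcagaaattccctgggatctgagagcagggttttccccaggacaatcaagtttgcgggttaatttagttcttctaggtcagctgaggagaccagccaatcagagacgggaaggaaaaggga
Cxcl1: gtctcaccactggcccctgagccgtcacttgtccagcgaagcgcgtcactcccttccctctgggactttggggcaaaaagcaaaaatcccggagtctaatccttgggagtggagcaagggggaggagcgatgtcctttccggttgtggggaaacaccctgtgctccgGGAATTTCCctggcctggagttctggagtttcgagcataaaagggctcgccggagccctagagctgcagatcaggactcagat
The Cxcl10 window holds 1 match to GAAANNGAA and 2 to GGANNTTCC, which do not overlap. The Cxcl1 window holds 1 match to GGANNTTCC, and the Cxcl9 window holds no match to any of the 3 motifs. Over all 33469 promoter windows of the same length, 8.12% hold GAAANNGAA, 3.36% hold GGANNTTCC and 7.67% hold TTCNNNGAA. Of the 33 chemokine and receptor genes with a window, 2 hold GAAANNGAA (Cxcl10 and Ccr2), 7 hold GGANNTTCC (Ccl7, Ccl24, Ccr3, Cxcl1, Cxcl6, Cxcl10 and Cxcl11) and 4 hold TTCNNNGAA (Ccl17, Ccl24, Ccr6 and Cxcl11). A match is a string of letters and does not show that a factor binds there, and binding was not measured.

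Cxcl10, an interferon-inducible ligand of Cxcr3 that attracts activated T cells, was the one called chemokine that was fully detected. Its processed signal, in scanner units, was 142 in the sedentary and 58.5 in the WR pool on chip 1, and 194 and 57.3 on chip 2. In the RWR pair it was 167 in the sedentary and 81.7 in the RWR pool on chip 3, and 181 and 50.6 on chip 4. On each chip the running signal lay below the sedentary signal. The log2 ratios were -1.28 and -1.76 in WR, a mean of -1.52 ± 0.34 (SD, 2 chips) or 0.349-fold, and -1.03 and -1.84 in RWR, a mean of -1.43 ± 0.58 or 0.370-fold. With the same dye, RWR differed from WR by 0.25 (Cy5) and by -0.08 (Cy3) on the log2 scale, differences of opposite sign that passed no cutoff. The comparison of RWR with WR throughout assumes that the same sedentary pool was used on all 4 chips, so both running values share it.

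The size of the Cxcl10 difference depended on how the background was treated. Normexp correction subtracted the local background, modeled what remained of it and added an offset of 50 to every signal. An added offset, or background left in both signals, shrinks the ratios of dim probes. With normexp and loess dye normalization, the mean log2 ratio came to -0.68 (WR) and -0.87 (RWR). With no background correction and loess it was -0.70 in WR and -0.73 in RWR. Cxcl10 passed the call under both in both modes.

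**Figure D2:**
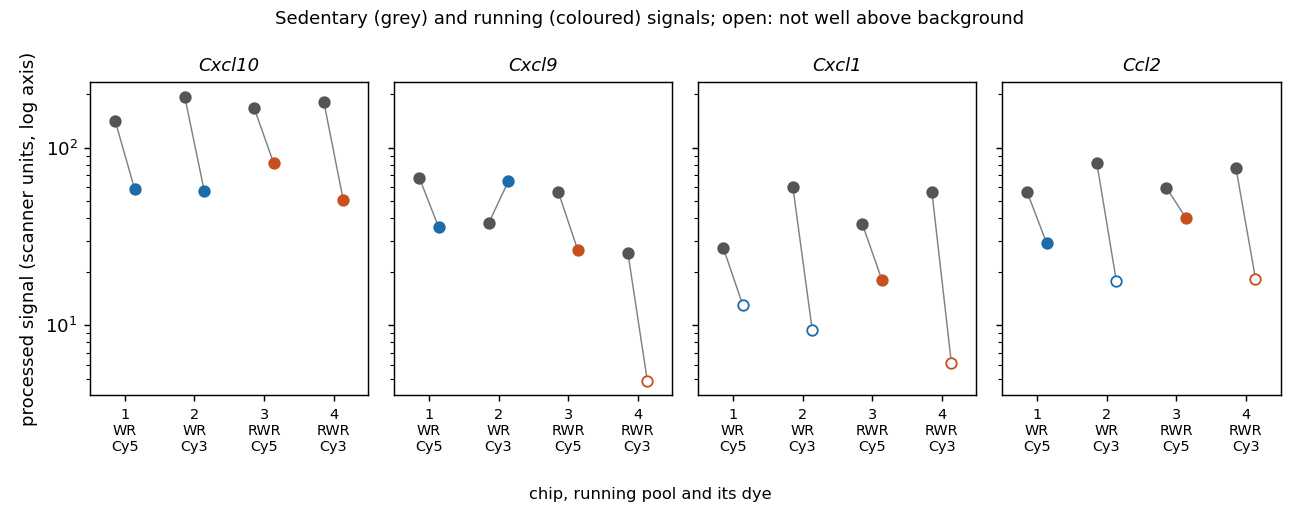
Processed signal (y axis, scanner units, log axis) of the sedentary pool (grey) and the running pool (blue WR, orange RWR) on each chip (x axis) for the 4 called genes, with lines joining the 2 dyes of a chip and open symbols for signals that were not detected; levels of different probes are not comparable. Cxcl10 has running below sedentary on every chip with all symbols filled, while Cxcl9 has the WR signal above the sedentary one on chip 2.

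Cxcl9, a second interferon-inducible ligand of Cxcr3, was called in RWR and not in WR. Its signal was 68.0 in the sedentary and 35.6 in the WR pool on chip 1, but 37.7 and 64.6 on chip 2, so that the Cy3 signal was the higher on both chips. In the RWR pair it was 56.3 in the sedentary and 26.5 in the RWR pool on chip 3, and 25.6 and 4.85 on chip 4, where the RWR signal was not detected. The log2 ratios were -0.93 and 0.78 in WR, a mean of -0.08 ± 1.21, and -1.08 and -2.40 in RWR, a mean of -1.74 ± 0.93 or 0.299-fold. The dye offset was -0.85 (log2 Cy5 over Cy3) in the WR pair and 0.66 in the RWR pair, of opposite sign. RWR differed from WR by -0.15 with Cy5 and by -3.18 with Cy3, so that it was not called in that comparison. With no background correction the RWR mean was -0.39 and Cxcl9 was not called, while with normexp it was -0.50 and called.

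Cxcl1, a ligand of Cxcr2 that attracts neutrophils, gave dim signals. They were 27.4 in the sedentary and 13.0 in the WR pool on chip 1, and 60.3 and 9.37 on chip 2. In the RWR pair they were 37.1 and 18.0 on chip 3, and 56.1 and 6.11 on chip 4. On each chip the running signal lay below the sedentary signal, but the WR pool was detected on 0 of its 2 chips and the RWR pool on 1 of 2. The WR log2 ratios were -1.07 and -2.69, which met the fold cutoff on both chips but not the p-value on both. Set against the lowest level that counted as detected on each chip, Cxcl1 was 2.37-fold lower in WR. That level is no upper limit for an undetected signal, so this fold is not a lower bound. The WR mean came to -0.31 with normexp and to -0.29 with no background correction. In RWR the log2 ratios were -1.04 and -3.20, a mean of -2.12 ± 1.53 or 0.230-fold. The mean came to -0.43 with normexp, where Cxcl1 was called, and to -0.33 with no background correction, where it was not. The other genes of the neutrophil-attracting group gave no call: Cxcl2 and Cxcl6 were not fully detected.

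Ccl2, a ligand of Ccr2 that attracts monocytes, is the one gene of the family whose probe was printed on 10 spots of each chip, so its error within a chip can be given. The mean log2 ratio over 10 spots was -0.96 ± 0.21 (SD) on chip 1 and -2.40 ± 0.92 on chip 2 in WR, and -0.56 ± 0.15 on chip 3 and -2.17 ± 0.51 on chip 4 in RWR. Every one of the 10 spots was below 0 on each chip, the highest being -0.70, -1.31, -0.33 and -1.47 on chips 1 to 4. The mean processed signal was 56.0 ± 6.67 in the sedentary and 28.9 ± 3.73 in the WR pool on chip 1, and 81.8 ± 4.55 and 17.7 ± 8.58 on chip 2. In the RWR pair it was 59.6 ± 7.89 and 40.2 ± 4.03 on chip 3, and 76.9 ± 5.53 and 18.3 ± 7.09 on chip 4. The sedentary pool was detected at 10 of 10 spots on every chip, whereas the running pool was so at 10, 1, 10 and 0 of 10 spots on chips 1 to 4. The mean over both chips was -1.68 ± 1.02 in WR (0.312-fold), which was called, and -1.36 ± 1.14 in RWR (0.388-fold), which passed the fold cutoff on both chips but not the p-value. The WR call was lost with normexp (-0.51) and with no background correction (-0.43).

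**Figure D3:**
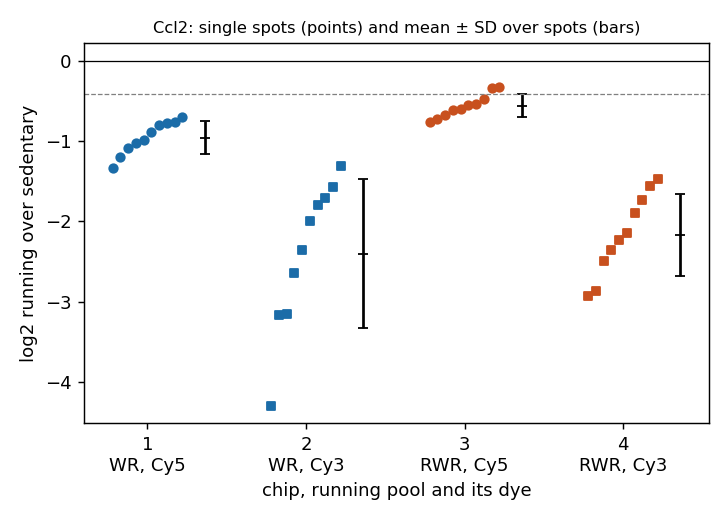
Log2 ratio of running over sedentary (y axis) at each of the 10 Ccl2 spots on chips 1 to 4 (x axis), with the mean and SD over spots as a black bar and the 0.75-fold cutoff as a dashed line. All spots are below 0, and chips 2 and 4, with the running pool in Cy3, are lower and more spread than chips 1 and 3.

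**Figure D4:**
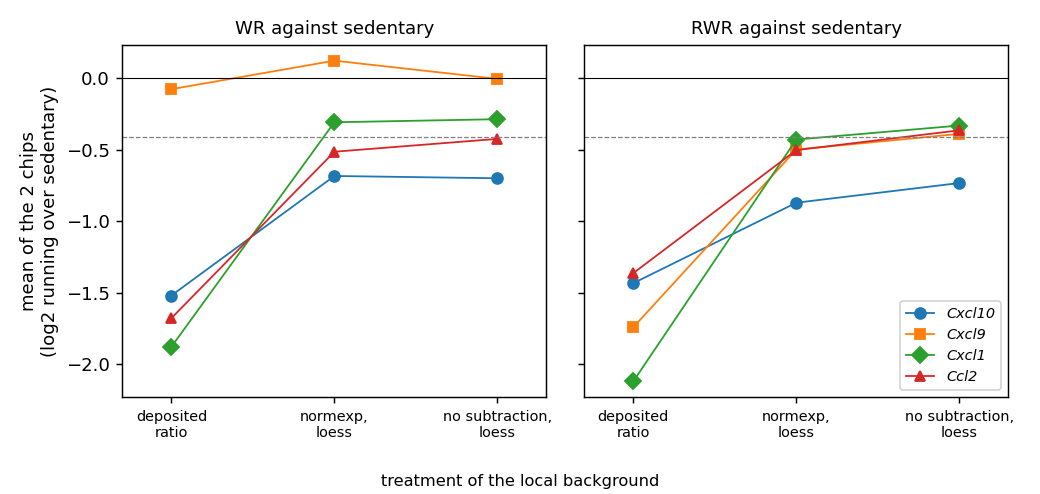
Mean log2 ratio of the 2 chips (y axis) for Cxcl10, Cxcl9, Cxcl1 and Ccl2 in WR (left) and RWR (right). The x axis gives 3 treatments of the background: the deposited ratio, normexp correction with loess, and no subtraction with loess. The dashed line is the 0.75-fold cutoff. Cxcl10 stays below the cutoff throughout, while Cxcl1 moves from -2.12 to -0.33 in RWR and Ccl2 from -1.68 to -0.43 in WR.

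Among the other CC ligands, none was called. Ccl3, Ccl6, Ccl11 and Ccl17 were fully detected. Ccl6, a rodent CC ligand, was at 0.00, -1.09, -0.11 and -0.75 on chips 1 to 4, and Ccl17, a ligand of Ccr4, at 0.53, 0.27, -0.03 and 0.10, the highest mean of the family in WR (0.40 ± 0.18) among genes with at least 1 pool detected on both chips. Ccl3, a ligand of Ccr1, was at 0.59, -0.10, 0.73 and -0.41, and Ccl11, the eosinophil attractant eotaxin, at -0.78, 0.74, -0.84 and 0.56. For Ccl3 and Ccl11 the sign followed the dye and not the running group. Ccl20, Ccl21 and Ccl24 were detected in none of the 8 measurements (4 chips, 2 dyes), and Ccl4, Ccl5, Ccl7, Ccl9, Ccl22, Ccl25 and Ccl28 in only some of them.

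None of the ligands known as constitutive in brain was called. Cxcl12, which guides migrating precursor cells through Cxcr4, was at 0.03, -0.24, -0.01 and -0.32, and its second probe at 0.05, -0.13, 0.08 and -0.15. Cx3cl1, or fractalkine, was at -0.03, 0.21, -0.06 and 0.10, with 0.09, 0.40, -0.11 and 0.25 at its second probe. Cxcl14, a ligand found in some interneurons, was at 0.03, -0.16, 0.11 and -0.01. Pf4, a platelet chemokine, was at -0.28, -0.19, -0.06 and 0.20. Ppbp, a platelet chemokine too, had one of the 3 highest RWR means among the 22 genes with at least 1 pool detected on both RWR chips (0.34, with 1.05 and -0.36 on the RWR chips and 0.41 and 0.21 on the WR chips). Cxcl6 had one of the 3 highest WR means (0.32) among the 21 genes so detected in the WR pair, with -0.87, 1.5, -1.65 and 1.48 on chips 1 to 4, so that its sign followed the dye. Neither was fully detected, and Xcl1 was detected in no measurement. Cxcl11, the third interferon-inducible ligand of Cxcr3, whose start lies 15.3 kb from that of Cxcl10, was detected with sedentary RNA on 1 chip of each pair and with running RNA on 0, and Cxcl13, a B cell attractant, was not fully detected.

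Among the receptors, none was called in either mode. Cxcr1, a receptor of neutrophil-attracting ligands, was above 0 on all 4 chips (0.21, 0.35, 0.35 and 0.45) and had the highest RWR mean (0.40 ± 0.08) among the 22 genes with at least 1 pool detected on both RWR chips, below the 1.5-fold cutoff. Its signals were 199 in the sedentary and 229 in the WR pool on chip 1, and 177 and 225 on chip 2. In the RWR pair they were 202 in the sedentary and 257 in the RWR pool on chip 3, and 177 and 242 on chip 4. The share of all probes with a ratio above 0 on all 4 chips is not given here. Cx3cr1, the fractalkine receptor of microglia, was at 0.16, -0.03, 0.06 and -0.05. Cxcr4, the receptor of Cxcl12, was at 0.25, -0.11, 0.10 and 0.18, and its dimmer second probe at 1.92, -0.50, 0.68 and -0.98. Ccr7, a receptor of lymph node homing, was at 0.68, -0.44, 0.35 and 0.07, and its sedentary signal was detected on 1 of the 2 WR chips. Ccr1, Ccr2, Ccr3, Ccr6 and Cxcr3 were detected in no measurement, among them Cxcr3, the receptor of Cxcl9 and Cxcl10, and Ccr2, the receptor of Ccl2. Ccr4, Ccr9, Cxcr2 and Cxcr5 were detected in 1 or 2 of the 8 measurements. Of the atypical receptors, Ackr3, which binds Cxcl12, was at 0.09, -0.21, -0.07 and -0.14, and Ackr2, a scavenger of CC ligands, was not fully detected.

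The whole family was centered close to 0. Over the 44 genes, represented by the brightest probe, the median log2 ratio came to -0.04 for WR and -0.10 for RWR, beside 0.00 over all named genes in both modes. Restricted to the genes detected in both dyes of both chips, 15 in WR and 18 in RWR, it was -0.06 and 0.02. In WR 3 genes were above 0 on both chips and 7 below, 26 had opposite signs and 8 had a ratio of exactly 0 on a chip, which the software sets where a ratio is not measurable. In RWR the counts were 3, 12, 27 and 2. The dye offset was larger than the running mean in 26 of 44 genes in WR and 27 of 44 in RWR, and had the same sign in both pairs in 35 of the 40 genes with an offset in both.

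**Figure D5:**
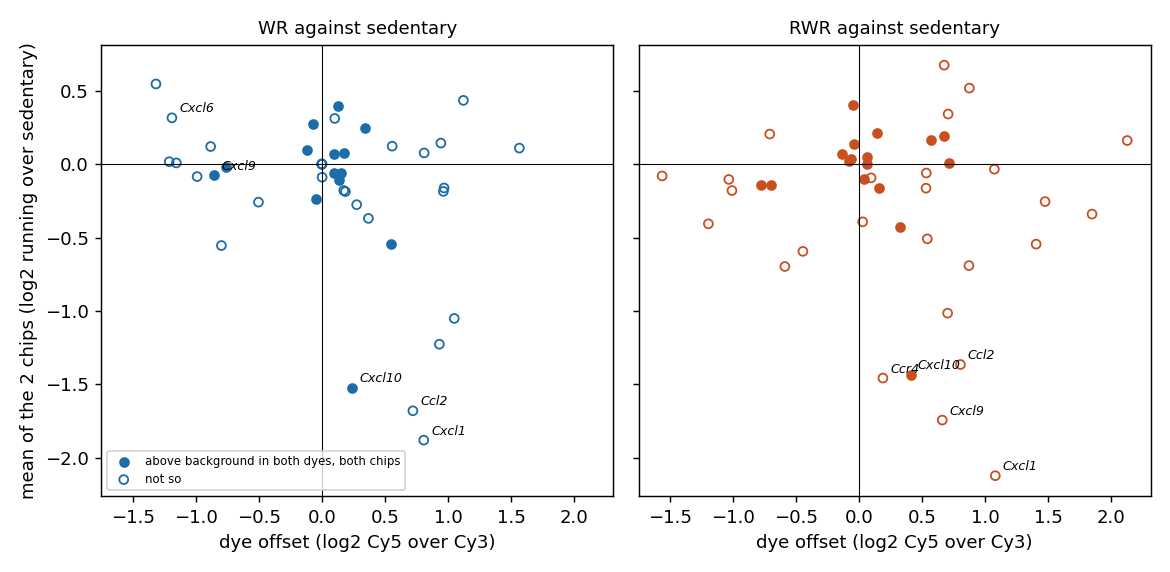
Mean of the 2 chips (y axis, log2 running over sedentary) against the dye offset (x axis, log2 Cy5 over Cy3, a quantity with the running ratio taken out) for 43 of the 44 genes in WR (left) and RWR (right); filled points are genes detected in both dyes of both chips. Cxcl10 is the filled point lowest on both panels, and Cxcl1, Ccl2 and in RWR Cxcl9 are open points below it or near it.

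Compared with each other in the same dye, RWR and WR differed by the fold cutoffs in both orientations at 1 probe higher in RWR (the second Ccl22 probe, 2% of 50, against 0.924% of all probes) and 3 lower (Ccl9, Ccr4 and the dimmer Cxcr4 probe, 6%, against 4.3% of all probes). These shares were near the background. None of the 4 probes was fully detected, and none belonged to the ligands called against sedentary rats. The Ccr4 ratio was exactly 0 on both WR chips, the value set where a ratio is not measurable. Its log2 ratios in RWR were -1.27 and -1.64, so its difference between the modes has no measured WR side. Sedentary signals in the same dye were also compared between the pairs, without scaling between chips. These differences hold chip brightness, which cancels in a ratio, as well as repeat error. The median processed signals were 66.7 and 74.6 (Cy3, chips 1 and 3) and 66.4 and 71.9 (Cy5, chips 2 and 4). The median absolute log2 difference between chips 1 and 3 (Cy3) was 0.219 over 21 genes of the family. Cxcl6 was the most different at -0.96 (chip 3 minus chip 1). Between chips 2 and 4 (Cy5) the median was 0.098 over 24 genes, with Ccr7 the most different at 1.16 (chip 4 minus chip 2). Over all probes the median absolute difference was 0.147 (Cy3) and 0.0755 (Cy5).

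Genes that induce chemokines, that respond to interferon and that carry the receptor signal were examined beside the ligands, from lists written with earlier results of these data known. Of 28 inducer genes (cytokines, their receptors and transcription factors) none was called, with medians of -0.03 in WR over 21 measured genes and 0.01 in RWR over 20. Ifng, Tnf and Ifnb1, the classical inducers, were detected in no measurement. Of 17 interferon-inducible genes other than chemokines, 15 were measured in each mode, and in WR all 15 means were below 0, with 13 below 0 on both chips and a median of -0.30. Rsad2, an antiviral enzyme, was the one called, at -0.82 and -0.79 in WR, and was at -0.54 and -0.61 in RWR. The list had 21 probes, and 0.0293% of all probes were called lower in WR. Oas1b and Oas1a, RNA-sensing antiviral genes, were at -0.62 and -0.42 in WR as means and at -0.18 and -0.17 in RWR. In RWR 13 of the 15 means were below 0, 8 of them on both chips, with a median of -0.13 and none called. Over all named genes the median was 0.00 in both modes, and no difference between the modes was tested. The share of all named genes below 0, in the mean or on both chips, is not given here. The counts of interferon-inducible genes below 0 therefore have no baseline. Of 24 receptor signaling genes and 14 genes of chemokine-modifying enzymes and related ligands, none was called in either mode.

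Cell type markers beside these results were as follows, and their part in the results was not tested. The 10 microglial markers had medians of 0.03 in WR and 0.12 in RWR, with none called. In WR the choroid plexus marker Ttr was called lower (-0.72 and -0.99), and in RWR it was at 0.20 and 0.04. The summed signal of the 7 choroid plexus markers on the array was 364 to 444 in the WR pool and 636 to 640 in the sedentary pool of that pair, and 716 to 815 in the RWR pool and 695 to 729 in its sedentary pool, with Kl detected in no measurement. The pituitary marker Prl was called lower in RWR (-1.47 and -0.94), where the RWR pool was detected on 0 of 2 chips. In WR it was at -1.52 and -0.44 and was not called, and the WR pool was likewise detected on 0 of 2 chips. The summed signal of the 7 pituitary markers was 916 to 938 in the RWR pool and 901 to 925 in its sedentary pool, and 720 to 811 in the WR pool and 787 to 808 in its sedentary pool, with Pou1f1 detected in no measurement. No endothelial, neutrophil and monocyte, red cell and platelet, T and NK cell or B cell marker was called in either mode.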

How the data were processed

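Hippocampal RNA pools of sedentary, WR and RWR rats were measured on 4 chips of a 2-color Agilent rat whole-genome array, designed on the rn4 build. The authors scanned the chips and processed them with Feature Extraction 11.0.1.1, which normalized the dyes by LOWESS. The processed signal was not the raw signal less the local background alone. For Cxcl1 in the WR pool on chip 2 the raw signal was 218, the local background 83 and the processed signal 9.37. Per the file headers, the deposited processed signal is a spot intensity in each dye, the deposited log10 ratio divides Cy5 by Cy3 and is 0 where it could not be measured, and the deposited p-value comes from the error model of a single chip. The deposited series matrix, which divides the processed signals of both dyes on a log10 scale, served as the alternative termed ratio of processed signals below.

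Control spots and outlier-flagged spots were dropped. Ratios were expressed as log2 of running over sedentary on every chip, the log2 ratios of a probe's spots were averaged, and its p-value was the median over spots. A probe counted as detected where at least 0.5 of its spots were flagged well above background. Probes were named by accession, ignoring the version, through the GRCr8 RefSeq table; promoter sequences are from RefSeq on GRCr8. A gene was represented by its brightest probe. The fold against the lowest detected level used the signals of each dye after Aquantile normalization. Between 67.5% and 82.5% of noncontrol spots were detected in a dye. The number of chips limits the precision.

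Groups were taken from the labels. Comparisons were WR and RWR each with sedentary, and RWR with WR in the same dye, with calls made over all probes and no test. The members and lists were chosen with earlier results of these data known. Genes named with values by chip were those called, the 3 highest and 3 lowest means of each mode among genes with at least 1 pool detected on both chips, those detected in all 8 measurements, and the chemokines the study names. The values of 1 gene are not reported here. Alternatives were calls without the p-value, cutoffs of 1.5-fold in either direction, detection in both dyes, normexp (offset 50) or no background correction with loess, median centring, the ratio of processed signals, other summaries of a gene's probes, the mean of the dye orientations, and each chip left out. Python 3.11.15 with numpy 2.4.6, pandas 2.3.3 and matplotlib 3.10.9, and limma 3.58.1 under R 4.3.3 were used.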

Additional observations from a re-analysis of the deposited data

How the results depend on the processing

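Cxcl10 was called lower in WR and in RWR under every alternative run for these comparisons. Several of these could not have removed it. Dropping the p-value or a chip can only keep or add calls, and Cxcl10 already met the detection requirement. The other calls moved with the settings, and the cause was not tested. Counts in parentheses are over all 41012 probes. Without the p-value, 5 probes were lower in RWR (572). Requiring detection in both dyes left 1 probe lower in WR (11) and 1 in RWR (15), and 0 higher (9) and 0 lower (52) for RWR over WR. Normexp left 1 probe lower in WR (5) and 3 in RWR (13), and 0 (18) and 0 (24) for RWR over WR. No background correction left 1 lower in WR (6), 1 in RWR (8), and 0 (2) and 0 (4) for RWR over WR. The mean of the dye orientations gave 3 higher (1316) and 9 lower (4552) for RWR over WR. On chips 1 and 2 taken singly, 1 and 4 probes were higher (905 and 1614) and 4 and 5 lower (701 and 1587) in WR. On chips 3 and 4 taken singly, 7 and 0 were higher (1424 and 1031) and 8 and 7 lower (1402 and 1541) in RWR. Over all 44 genes the RWR median lay between -0.34 (without chip 3) and -0.018 (without chip 4). Restricted to the genes detected in both dyes of both chips, it was 0.024 and so changed sign. The single-gene values of Cxcl10, Cxcl9, Cxcl1 and Ccl2 were compared under these alternatives. Of them, 37 moved by less than 1 SD of the chips and 11 by more. All 11 came from normexp or no background correction. Under both, Ccl2 in RWR and Cxcl9 in WR moved by less, as did Cxcl10 in RWR with normexp. Leaving out a chip could not move a value by 1 SD, because the mean of a pair always lies closer than that to each chip. Median centring and the ratio of processed signals left these values almost unchanged. The count of 37 therefore does not show stability. No called value changed sign. Cxcl9 in WR, which was not called, came to 0.12 with normexp and 0.78 without chip 1. Naming probes by the gene name column was not run. The single pool of each condition and dim signals limit every ratio. No paired analysis was possible because each condition had 1 pool, measured on both chips of a pair.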
